A study of Mus musculus with 2 samples.

Results

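The loci described here are the miR-99/100 genes Mir99a, Mir99b and Mir100 and the miR-125 genes Mir125a, Mir125b-1 and Mir125b-2. They were chosen by identity, as the miR-99/100 and miR-125 loci of the 3 clusters in which these genes lie beside a let-7 gene, and they are 6 of 2202 microRNA loci with a read count. All 6 were found by their Ensembl gene ID in the GENCODE M21 annotation. The samples were left cerebral cortex from female B6CASTF1/J mice aged 14 days, an F1 hybrid strain. There was 1 group of 2 biological replicates, with no treatment and no altered allele, so the comparisons are among loci and between the 2 libraries. The label of replicate 1 refers to 3x Females and that of replicate 2 to a single female. Both labels carry the same donor record, and they leave unclear if replicate 1 pools animals. Differences between animals, pooling and technical differences therefore cannot be told apart between the libraries.

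A microRNA is cut from a hairpin precursor that holds a 5p and a 3p arm, and it represses messenger RNAs that pair with its seed, bases 2 to 8 from its 5′ end. miR-99/100 belongs to the old miR-10 family and is known for repressing Mtor, the kinase of the growth pathway of that name. miR-125 is the vertebrate relative of lin-4 of Caenorhabditis elegans, the first microRNA described, and, like let-7, it is known for repressing Lin28 as cells differentiate. The order miR-99/100, let-7, miR-125 is an ancient arrangement that vertebrate genomes carry in several copies.

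The mature sequences show which of the loci a short read can tell apart, and they are given here as RefSeq lists them on GRCm38.p6, with the seed in capitals. Mature arms of all 6 loci were in that table. The miR-99/100 loci have these 5p arms:
miR-99a-5p: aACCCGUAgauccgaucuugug
miR-99b-5p: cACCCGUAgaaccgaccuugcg
miR-100-5p: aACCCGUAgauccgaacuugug
The miR-125 loci have these 5p arms, of which miR-125b-5p is encoded by both Mir125b-1 and Mir125b-2:
miR-125a-5p: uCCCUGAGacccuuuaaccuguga
miR-125b-5p: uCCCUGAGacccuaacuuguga
The Mir125b loci differ in their 3p arms:
miR-125b-1-3p: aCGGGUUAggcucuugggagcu
miR-125b-2-3p: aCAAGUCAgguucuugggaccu

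All 3 miR-99/100 loci share the 5p seed ACCCGUA, and no other of the 1058 loci in the RefSeq table has it. miR-99a-5p and miR-100-5p differ at 1 of 22 positions, written U16A with positions counted from 1 at the 5′ end and the base of miR-99a-5p first. miR-99a-5p and miR-99b-5p differ at 4 positions outside the seed, A1C, U11A, U16C and U21C. The seed CCCUGAG is found at 6 loci of the table, namely the 3 miR-125 loci, Mir351 on the X chromosome, Mir6367 and Mir6394. miR-125a-5p and miR-125b-5p share their first 13 bases. The 3p arms of the Mir125b loci differ at 5 of 22 positions, and 3 of these, G3A, G4A and U7C (miR-125b-1-3p first), lie in the seed.

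The hairpins differ in how much sequence they share with another microRNA locus, and this bears on every count below. Mir125b-1 and Mir125b-2 have 24 bases in common, which include all 22 bases of miR-125b-5p. A read within that stretch maps to both loci, and the deposited tables set such multiply mapped reads aside, outside the gene counts. The 3p arms of both Mir125b loci lie outside shared stretches, with 0 of 22 bases inside one. Mir99a and Mir100 share 16 bases, and 7 of the 22 bases of each 5p arm lie outside that stretch. Mir99b and Mir125a share no stretch of 16 or more bases with another annotated microRNA locus. Only annotated microRNA loci were compared, not the rest of the genome.

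**Figure D1:**
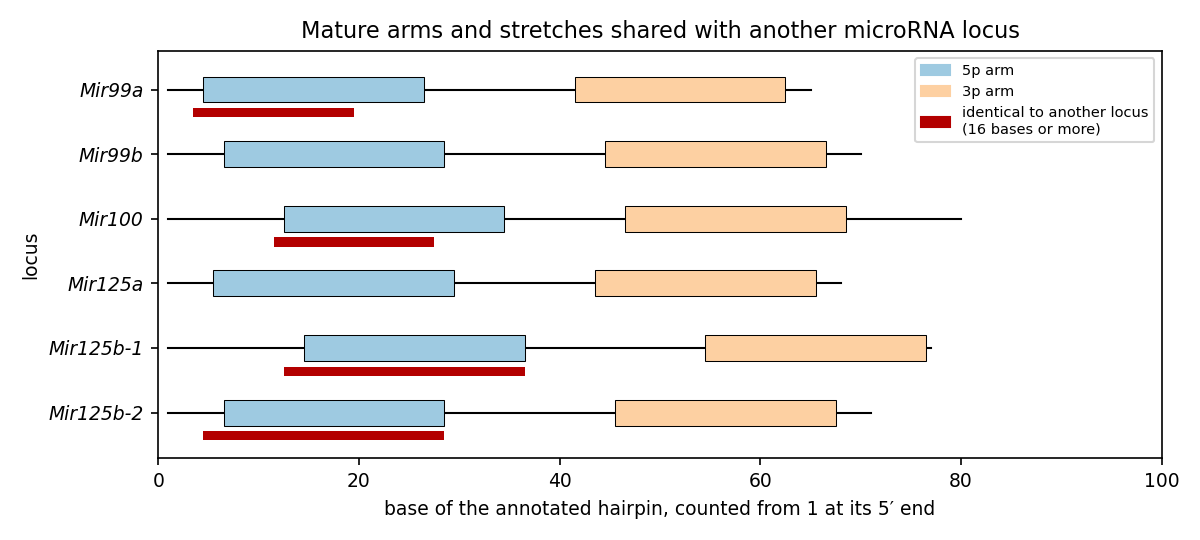
Hairpins of the 6 loci drawn to scale, with the base of the hairpin on the x axis and the locus on the y axis. Blue boxes are 5p arms, orange boxes 3p arms, and red bars mark stretches of 16 or more bases identical to another microRNA locus. The red bar covers the whole 5p arm in Mir125b-1 and Mir125b-2, part of it in Mir99a and Mir100, and is missing in Mir99b and Mir125a.

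The clusters lie on 3 chromosomes, with every member on the plus strand of mm10. Mir99a (ENSMUSG00000065530.1, chromosome 16, 77598936 to 77599000) stands 656 bases before Mirlet7c-1, and Mir125b-2 (ENSMUSG00000065472.1, 77646273 to 77646343) follows after another 46522 bases. Both are in introns of the non-coding host gene Mir99ahg, and Mir125b-2 also overlaps part of an exon of C130023A14Rik, a transcript still to be tested experimentally in GENCODE's classification. Mir99b (ENSMUSG00000065396.1, chromosome 17, 17830188 to 17830257), Mirlet7e and Mir125a (ENSMUSG00000065479.2, 17830812 to 17830879) fall within 692 bases of Spaca6, a protein-coding gene required in sperm. Mir99b is intronic there, while part of Mir125a overlaps an annotated exon. Mir100 (ENSMUSG00000093011.1, chromosome 9, 41531425 to 41531504) and Mir125b-1 (ENSMUSG00000093354.1, 41581926 to 41582002) are intronic in 3110039I08Rik, which RefSeq names Mir100hg, and in Gm49317. This cluster spans 50.6 kb, and Mirlet7a-2 lies 5211 bases after Mir100. Mir100 also lies opposite an exon of Gm48742, and Mir125b-1 lies in an exon of the sense-intronic transcript Gm28119. No read was counted on the opposite strand of any of the 6 loci in either library, a count that allows up to 3 reads.

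Counts were taken on the RNA strand. The gene-assigned total was 2740332 reads in replicate 1 and 3207941 reads in replicate 2, and levels are reads scaled to a total of 1000000 (CPM). Multiply mapped reads made up 40.6% of replicate 1 and 37.9% of replicate 2. The cortex label was checked against fixed lists of microRNA loci. Of 12 neuron-enriched loci 8 reached 10 reads in both libraries, against 389 of all 2202 loci. The list held 3.34% and 4.25% of counted reads in replicates 1 and 2. Mir128-1 was lower in replicate 1 (5376 against 15159 CPM) and Mir138-1 higher (6789 against 3655 CPM). However, the 3 loci of miR-124, a defining neuronal microRNA encoded at several places, had 0 to 12 reads. The Mir9 loci of the list were low too, with 50 and 85 reads in replicates 1 and 2 for Mir9-1, 3 and 9 for Mir9-2, and 275 and 379 for Mir9-3. Mir9, Mir128 and Mir138 also have more than 1 locus in the list, and their counts leave out multiply mapped reads. In replicates 1 and 2, the liver locus Mir122 had 60.9 and 43.0 CPM, the muscle locus Mir206 28.8 and 31.2 CPM and the endocrine locus Mir375 180.3 and 121 CPM. The muscle loci Mir1a-1, Mir1a-2, Mir133a-1 and Mir133a-2 had 0 reads in both libraries, but they come from microRNAs encoded at several places, and their counts say nothing about the tissue.

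The 6 loci together were a sizeable part of the gene-assigned reads, a total that leaves out multiply mapped reads of any microRNA. They held 154712 reads in replicate 1, or 5.65% of the gene-assigned total (exact binomial 95% interval 5.62% to 5.67%), and 199310 reads in replicate 2, or 6.21% (6.19% to 6.24%). The mean was 5.93 ± 0.401% (SD, n = 2). Intervals cover counting error only. The 3 miR-99/100 loci supplied 4.99 ± 0.120% of gene-assigned reads, and the 3 miR-125 loci 0.941 ± 0.281%. The miR-99/100 loci had more counted reads than the miR-125 loci in both libraries. Multiply mapped reads of miR-125b-5p are not part of these counts.

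Among the miR-99/100 loci, the levels of all 3 were nearly equal in the libraries. Mir99a, the most abundant of the 6, had 28387 CPM in replicate 1 and 29266 CPM in replicate 2 (28827 ± 622 CPM, SD, n = 2), which gave it rank 8 in replicate 1 and rank 7 in replicate 2 among all loci. Mir99b had 13380.1 and 14051 CPM in replicates 1 and 2 (13715 ± 474 CPM). Mir100 had 7264 and 7411 CPM (7338 ± 104 CPM). The SD was 2.16% of the mean for Mir99a, 3.46% for Mir99b and 1.42% for Mir100. The 3 levels did not overlap, so the order Mir99a, Mir99b, Mir100 was the same in both libraries. Mir99a and Mir100, whose 5p arms differ by 1 base, stood at a ratio of 3.91 in replicate 1 and 3.95 in replicate 2.

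Among the miR-125 loci, Mir125a had the highest level and the widest spread. It had 5894 CPM in replicate 1 and 9478 CPM in replicate 2 (7686 ± 2535 CPM, SD, n = 2), an SD of 33.0% of the mean. Mir125b-1 had 1284 and 1592 CPM in replicates 1 and 2 (1438 ± 217 CPM). Mir125b-2 had 248 and 332 CPM (290.1 ± 59.3 CPM). All 3 were lower in replicate 1 on the CPM scale. On that scale the median log2 ratio of the 389 loci that reached 10 reads in both, replicate 1 over replicate 2, was −0.16. The other members of the 6 loci were lower there too, so the lower levels were not particular to miR-125. For the Mir125b loci these are levels of what could be placed at 1 locus, and the files do not separate the arms. They are no measure of miR-125b-5p.

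The order of the 6 loci by mean CPM was Mir99a, Mir99b, Mir125a, Mir100, Mir125b-1 and Mir125b-2. Neighbours in that order did not overlap between the libraries, except Mir125a and Mir100. Mir100 was above Mir125a in replicate 1, by 7264 to 5894 CPM, and below it in replicate 2, by 7411 to 9478 CPM. Their order was therefore not resolved. The widest steps lay below Mir100. Mir100 stood above Mir125b-1 5.66-fold in replicate 1 and 4.66-fold in replicate 2, and Mir125b-1 above Mir125b-2 5.17-fold and 4.79-fold. Counts of both Mir125b loci leave out multiply mapped reads of miR-125b-5p. Their places in the order do not rank the amount of miR-125b-5p. A read spans a whole mature microRNA, so CPM was compared without division by length. Divided by the length of the hairpin, 65 to 80 bases, the levels ran from 443 CPM per base for Mir99a to 4.09 CPM per base for Mir125b-2, in the same order.

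**Figure D2:**
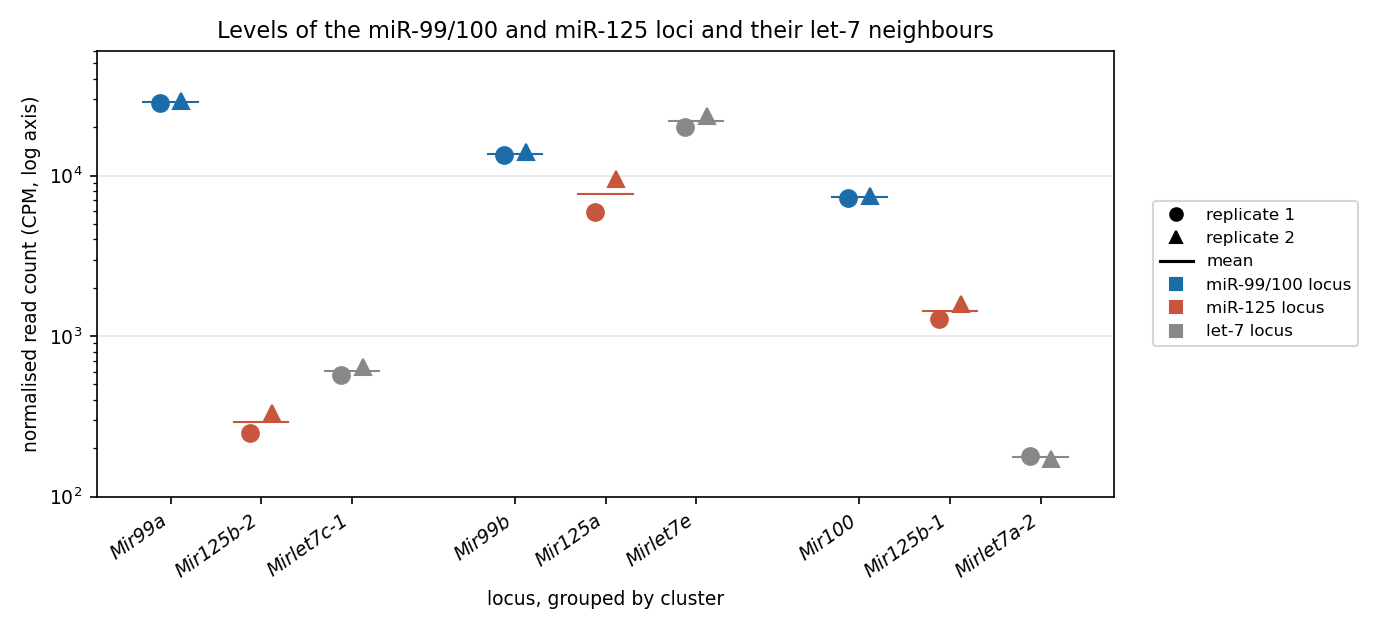
Normalised read counts (CPM, log axis) of the 6 loci and of the 3 let-7 loci beside them, grouped by cluster on the x axis. Circles are replicate 1, triangles replicate 2 and lines the mean of both. The miR-99/100 loci sit between 7264 and 29266 CPM with their replicates nearly level, and Mir125a shows the widest gap, 5894 against 9478 CPM.

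Within each cluster, ratios of reads from the same library do not depend on how libraries are scaled. In all 3 clusters and both libraries the miR-99/100 locus had more counted reads than the miR-125 locus. In the Mir99b cluster, where no 5p arm lies wholly in a shared stretch, Mir99b exceeded Mir125a 2.27-fold in replicate 1 and 1.48-fold in replicate 2. Mir100 had 5.66 and 4.66 times the reads of Mir125b-1 in replicates 1 and 2. Mir99a exceeded Mir125b-2 114-fold and 88.2-fold. The larger ratios belong to the clusters in which the miR-125 locus encodes the shared miR-125b-5p.

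The let-7 neighbours gave opposite pictures in different clusters. In the Mir99b cluster both members lay below let-7. Mir99b had 0.669 times the reads of Mirlet7e in replicate 1 and 0.598 times in replicate 2, and Mir125a had 0.295 and 0.403 times. Mirlet7e itself had 19992 and 23493 CPM in replicates 1 and 2. In the other clusters the miR-99/100 locus lay far above let-7. Mir99a had 49.9 times the reads of Mirlet7c-1 in replicate 1 and 45.4 times in replicate 2, and Mir100 had 40.5 and 43.0 times those of Mirlet7a-2. The miR-125 loci split, with Mir125b-2 at 0.436 and 0.515 times Mirlet7c-1 and Mir125b-1 at 7.15 and 9.23 times Mirlet7a-2. let-7c-5p, of which all 22 bases lie in a stretch shared with other let-7 loci, is encoded at Mirlet7c-1 and again at Mirlet7c-2, and Mirlet7a-2 shares 23 bases with Mirlet7a-1. Reads of those arms are set aside in the same way as those of miR-125b-5p, so ratios that involve these loci compare counts at loci and not amounts of microRNA.

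**Figure D3:**
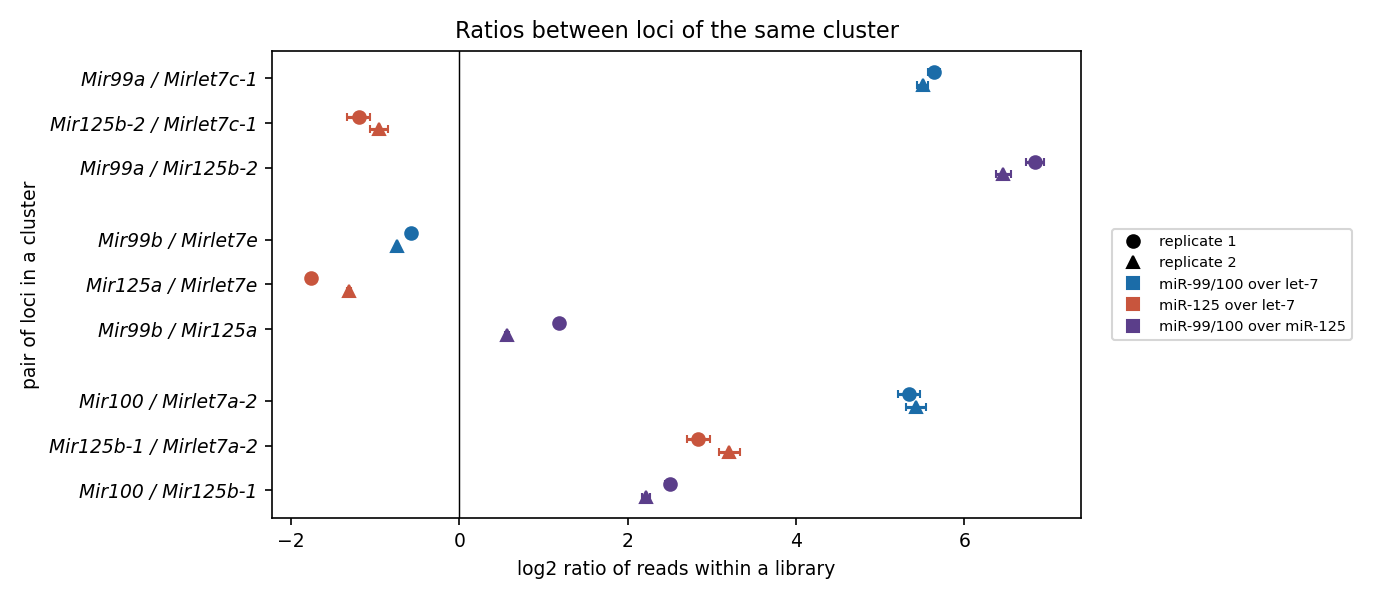
The log2 ratio of reads between pairs of loci of the same cluster, within each library (x axis), with circles for replicate 1, triangles for replicate 2 and bars for 95% intervals of counting error. Ratios of miR-99/100 to miR-125 (purple) lie right of 0 in every cluster and are smaller in replicate 2. Ratios to let-7 lie left of 0 for both members of the Mir99b cluster.

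The libraries were compared next, to show how far each locus is reproduced. The miR-99/100 loci changed little and in step, and the miR-125 loci were lower in replicate 1 by unequal amounts. The log2 ratio, replicate 1 over replicate 2, was 0.13 for Mir99a, 0.10 for Mir99b and 0.14 for Mir100 after TMM scaling, which sets the trimmed mean ratio of all loci to 0. It was −0.51 for Mir125a (95% counting interval −0.54 to −0.49), −0.14 for Mir125b-1 (−0.20 to −0.075) and −0.25 for Mir125b-2 (−0.39 to −0.11). In size, the ratio of Mir125b-1 was like those of the miR-99/100 loci. Reads of each locus were tested between the libraries (exact binomial, two-sided), with p-values adjusted by Benjamini-Hochberg over the 389 loci that had 10 or more reads in both. By this test 6 of 6 loci differed, 3 higher and 3 lower in replicate 1. The background was 58.4% of all loci tested, of which 29.6% of those tested were higher and 28.8% lower in replicate 1, so a call by this test is common. The adjusted p by the exact binomial test was 5.04e-300 for Mir125a and 0.000957 for Mir125b-2, the smallest and the largest of the 6. These p-values cover counting error and compare these libraries, not conditions.

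The direction of the miR-99/100 loci depended on the scaling, and that of the miR-125 loci did not. Scaling by library total lowered the median log2 ratio of all loci by 0.17, to −0.16. With it the log2 ratio was −0.044 for Mir99a, −0.071 for Mir99b and −0.029 for Mir100, reversed from the values above, and Mir100 no longer passed the exact binomial test (adjusted p = 0.0606). The miR-125 loci then had log2 ratios of −0.69 for Mir125a, −0.31 for Mir125b-1 and −0.42 for Mir125b-2. With library totals 5 of 6 loci passed the test, against 60.7% of all loci tested. All 5 were lower in replicate 1, against 40.9% of loci tested, and 0 were higher, against 19.8%. Of the 389 loci, 62.2% had a smaller absolute log2 ratio than Mir125a under TMM scaling, and 20.8% had a smaller one than Mir100. Under TMM scaling the median absolute log2 ratio of all loci was 0.40, and of the 6 loci Mir125a lay above it. By library total this median was 0.38, and Mir125a and Mir125b-2 lay above it.

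**Figure D4:**
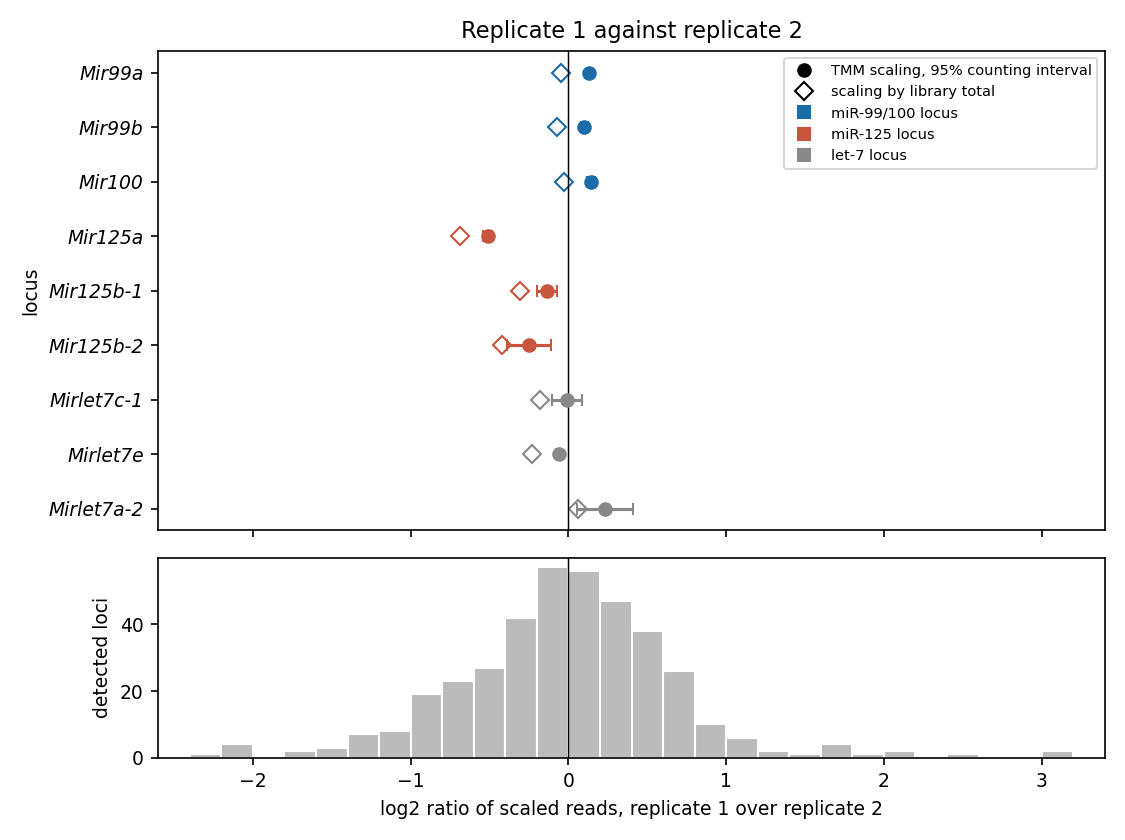
Upper panel, log2 ratio of scaled reads, replicate 1 over replicate 2, for the 6 loci and their let-7 neighbours, with filled circles and 95% counting intervals for TMM scaling and open diamonds for scaling by library total. Lower panel, the number of the 389 loci at each log2 ratio after TMM scaling. The miR-99/100 loci lie at 0.10 to 0.14 under TMM scaling and left of 0 by library total, and Mir125a lies farthest left, at −0.51.

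Differences between loci in these ratios are free of the scaling. Mir99a and Mir100, on different chromosomes, differed in log2 ratio by −0.015 (95% counting interval −0.046 to 0.015), and Mir99a and Mir99b by 0.027 (0.0024 to 0.051). Mir99b and Mir100 differed by −0.042 (−0.075 to −0.0080). Within a cluster, the log2 ratio of the miR-99/100 locus to the miR-125 locus was higher in replicate 1 than in replicate 2 in each case. The difference was 0.61 for Mir99b and Mir125a (0.58 to 0.65), 0.38 for Mir99a and Mir125b-2 (0.24 to 0.52), and 0.28 for Mir100 and Mir125b-1 (0.21 to 0.35). The largest of these 3 differences was thus found in the most compact cluster, of 692 bases. In the other clusters the miR-125 counts leave out multiply mapped reads of miR-125b-5p, so the 3 differences are not like measures. A relation to the span of the cluster was not tested. The log2 ratio of Mir125a to Mirlet7e was lower in replicate 1, with a difference of −0.45 (−0.48 to −0.42), and that of Mir99b to Mirlet7e was higher there, with a difference of 0.16 (0.14 to 0.19). With 1 library on each side, the intervals hold counting error and no spread between animals.

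Other loci differed between the libraries at the same time. Oligodendrocyte loci (Mir219a-1, Mir219a-2 and Mir338, of which 3 of 3 reached 10 reads in both libraries) held 0.428% of counted reads in replicate 1 and 0.148% in replicate 2. This sum was led by Mir219a-2 (3339 and 853 CPM), while Mir338 had 923 and 613 CPM and Mir219a-1 12.8 and 10.9 CPM. The 3 endothelial and mural loci held 2.12% in replicate 1 and 1.36% in replicate 2, a sum led by Mir126a (16741 and 9390 CPM), while Mir145a had 129.5 and 188 CPM. The 2 erythroid loci held 0.0952% and 0.0564%, led by Mir451a (908 and 510.3 CPM), while Mir144 had 43.4 and 53.6 CPM. The 5 microglial and leukocyte loci held 0.156% and 0.189%, with Mir150 at 518 and 1068 CPM and Mir146 at 871 and 655 CPM. Members of the endothelial and mural, the erythroid, and the microglial and leukocyte lists thus went in both directions. The let-7 family held 30.5% in replicate 1 and 24.6% in replicate 2, and its members went in both directions too. Mirlet7i had 93067 and 64739 CPM in replicates 1 and 2. Mirlet7b had 58699 and 69822 CPM, and Mirlet7e and Mirlet7c-1 were also lower in replicate 1. The part of these differences in the levels of the 6 loci was not tested. In bulk tissue, fewer cells of a type and less RNA per cell cannot be told apart.

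Relatives outside the clusters were set beside the 6 loci. Mir351, the X-linked locus whose 5p arm has the miR-125 seed, had 1075 CPM in replicate 1 and 1575 CPM in replicate 2 (1325 ± 353 CPM, SD, n = 2). Mir125a exceeded it 5.48-fold in replicate 1 and 6.02-fold in replicate 2, and Mir125b-1 stood at 1.19 and 1.01 times its reads, whose counting interval included equality in replicate 2. The log2 ratio of Mir351, replicate 1 over replicate 2, was −0.38 under TMM scaling and −0.55 by library total. All 4 loci with this seed and counted reads passed the exact binomial test as lower in replicate 1 under both scalings, as did 28.8% of all loci tested under TMM scaling and 40.9% by library total. Their summed share was 0.850% in replicate 1 and 1.30% in replicate 2. Counts of the Mir125b loci leave out multiply mapped reads of miR-125b-5p, their arm with this seed. The ratios and the summed share are therefore counts at loci and not amounts of microRNA with the seed. Mir6367 and Mir6394, which carry the same seed, had 0 reads in both libraries, a count that still allows 1.09 CPM in replicate 1 and 0.935 CPM in replicate 2.

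The miR-10 loci of the Hox clusters, relatives of miR-99/100 with a different seed, were low. Mir10a had 16 and 29 reads in replicates 1 and 2, or 5.84 and 9.04 CPM. Mir10b had 140 and 118 reads, or 51.1 and 36.8 CPM. The 5p arms of these relatives and of Mir351 are shown to compare them with those of the 6 loci:
miR-10a-5p: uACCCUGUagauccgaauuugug
miR-10b-5p: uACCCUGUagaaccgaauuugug
miR-351-5p: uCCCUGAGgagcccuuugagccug
The longest run of bases in common was 11 for miR-100-5p and miR-10a-5p, 10 for miR-99b-5p and miR-10b-5p, and 8 for miR-125b-5p and miR-351-5p.

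Loci most like each member were taken as those nearest in log2 ratio between the libraries among loci within 2-fold of its mean CPM, with the 6 loci themselves left out by the rule. Mir99b, Mir100 and Mir125a were within that window of one another. With 2 libraries this likeness rests on 1 ratio per locus, and many loci can match by it. For Mir99a, the most abundant, 7 loci were candidates and the nearest were Mir652 and Mir433, at distances of 0.17 each. For Mir99b they were Mir191 (0.0033) and Mir149 (0.098) among 22 candidates, and for Mir100 they were Mir181d (0.021) and Mir383 (0.043) among 35. Mir125a was nearest to Mir409 (0.0060) and Mir92b (0.093) among 33 loci. Mir125b-1 was nearest to Mir3099 (0.047) and Mir376a (0.049) among 59 loci, and Mir125b-2 to Mir505 (0.0091) and Mir3102 (0.018) among 67.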

How the data were processed

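Small RNA (below 30 nt) was sequenced from 2 cortex libraries. The authors deposited whole read counts per microRNA gene on build mm10 with GENCODE M21, per the lists of files that accompany them; the aligner, counter and trimming are not given in the sources used. Of 3 unnamed columns, the one whose values show counts on the RNA strand was used. Rows naming no gene held 64.6% and 66.7% of reads in replicates 1 and 2 and were left out of library sizes. All 2202 identifiers matched GENCODE M21.

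Libraries were scaled with edgeR 4.0.16 (TMM) and compared by exact binomial tests (scipy 1.17.1), adjusted over 389 loci, with a threshold of 0.05; with 1 group, no model with replicates could test a difference. The binomial test was tried on simulated counts with counting error only, so spread between libraries beyond counting error was not simulated. Alternatives were the column without strand, all reads as denominator, DESeq2 1.42.0 size factors, library totals, minimums of 5, 50 or no reads, and each replicate left out. Sequences come from RefSeq and, for shared stretches, GENCODE M21. Named loci were the members, let-7 neighbours, 3 relatives, the 2 nearest loci per member and marker lists. Members and lists were chosen with earlier results of these data known, and Mir6367 and Mir6394 were named after their values were seen.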

Additional observations from a re-analysis of the deposited data

How the results depend on the processing

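The share of reads held by the 6 loci, 5.93%, depends on its denominator. It was 6.37% in the column without strand, in which loci that overlap another on the opposite strand lose their reads, and 2.03% of all reads of the library. Among gene-assigned reads without the let-7 family, a choice made after seeing the data, it was 8.18 ± 0.0842% (8.12% in replicate 1 and 8.24% in replicate 2). Leaving out 1 replicate gave 5.65% to 6.21%. The number of loci that differed between the libraries was 6 of 6, and 5 of 6 with library totals. With library totals the log2 ratios of Mir99a (−0.044), Mir99b (−0.071) and Mir100 (−0.029) were reversed. No other alternative changed the direction or the call of any of the 6. Ratios to Mirlet7e could not be formed in the column without strand, where it has 0 reads because the antisense locus Gm25927 overlaps it. The other ratios within clusters rest on the same reads in that column. Leaving out 1 of 2 replicates gives the value of the other, so it is no check of their stability. No paired analysis was possible because there is 1 group. With 680 to 93885 reads per locus and library, counting error was small beside the spread between libraries for Mir125a. The multiply mapped reads, which the files assign to no locus, limit the counts of Mir125b-1 and Mir125b-2.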

Other observations

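Mir351, which carries the miR-125 seed, lies on the X chromosome in a group with Mir322, Mir503, Mir542 and the Mir450 loci, which were chosen after its values were seen. Mir322, of the miR-15/16 seed group, was the most abundant of them, with 2426 CPM in replicate 1 and 1551 CPM in replicate 2, the opposite order to Mir351 at 1075 and 1575 CPM. Mir503 had 50.7 and 46.4 CPM, Mir542 had 53.6 and 72.3 CPM, and Mir450b had 12.4 and 8.10 CPM in replicates 1 and 2. Mir450-1 and Mir450-2 had 1 to 4 reads in a library. Summed over the 7 loci, the share was 0.362% in replicate 1 and 0.325% in replicate 2.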
